A study of Mus musculus with 9 samples.

Results

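Cdk17 was represented by 2 circular RNAs (circRNAs), mmu_circRNA_18991 and mmu_circRNA_018892, out of 14330 probes measured on each of 9 circRNA arrays. They were chosen by their host gene symbol in the deposited tables, which name only the 737 circRNAs that the authors listed as higher in HuD RIP than in IgG RIP (668 circRNAs) or than in WT RIP (510 circRNAs). Both Cdk17 circRNAs were in both tables, so their differences between HuD RIP and either control were used to select them and are given as a description with no test. Each had 1 spot on every array, and no spot was saturated or marked as an outlier. Circles of Cdk17 outside the tables carry no name there and were not analysed here.

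The RNA came from adult mouse striatum and was recovered by RNA immunoprecipitation (RIP), in which an antibody captures a protein together with its bound RNA. HuD RIP (3 samples) used tissue of HuD-overexpressing (HuD-OE) transgenic mice, whose myc-tagged HuD is driven by the Camk2a promoter, which is active in forebrain neurons, on the C57BL/6J background, and the anti-myc tag antibody 9B11. WT RIP (3 samples) used the same antibody on wild type tissue, which lacks the tag. IgG RIP (3 samples) used, by the methods of the study, non-immune IgG on HuD-OE tissue, although its labels name the 9B11 antibody and give IgG as the genotype. By the methods, tissue of 3 mice was pooled for each immunoprecipitation and analysed in 3 separate assays. Whether the assays of a group used different mice is not clear from this, so the spread between replicates, and the p-values that rest on it, may be technical. All groups were treated with RNase R, which digests linear RNA, and labelled with Cy3 by random priming. The sources used here give no age beyond adult, and because bulk tissue was immunoprecipitated, more cells holding a circRNA and more of it per cell cannot be told apart. The 9 samples include no RNA taken before immunoprecipitation. Against WT RIP, capture with HuD and a higher level of a circRNA in HuD-OE tissue therefore cannot be told apart.

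CDK17 is a member of the PCTAIRE group of serine/threonine kinases, relatives of the cyclin-dependent kinases that are abundant in postmitotic cells and in the brain. Its close relatives CDK14 and CDK16 are activated by cyclin Y rather than by the cyclins of the dividing cell. HuD, the product of Elavl4, is a protein of neurons that binds U-rich and AU-rich stretches of RNA and is known for stabilising messages in neurons. A circRNA forms when the 3′ end of one exon is joined back to the 5′ end of an upstream or the same exon, and 1 gene can give several circles. The comparison of HuD RIP with each control asked which circRNAs come down with HuD.

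Both circRNAs mapped to the plus strand and were assigned to transcript NM_146239 of Cdk17. The shorter, mmu_circRNA_18991 (probe ASCRP4003405), lay at chr10:93235435-93236964, spanned 1529 bases and was classed as sense overlapping, a class for circles that come from the strand of a gene but fit neither the exonic nor the intronic class. The longer, mmu_circRNA_018892 (probe ASCRP4005992), lay at chr10:93221586-93239043, spanned 17457 bases and was classed as exonic. The shorter span lay wholly inside the longer one, with 13849 bases of the longer span before it and 2079 bases after it. The longer span was 11.4 times as long, and the shorter covered 8.76% of it. A span is a distance on the genome and includes introns, so it is not the length of the circle. The deposited tables do not state the build or whether the start counts from 0 or from 1. Both spans lay inside Cdk17 on GRCm38.p6, as did 685 of the 688 named circRNAs whose transcript was found in the reference table for that assembly. Exon borders were not used here, so the exons of each circle are not given.

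**Figure D1:**
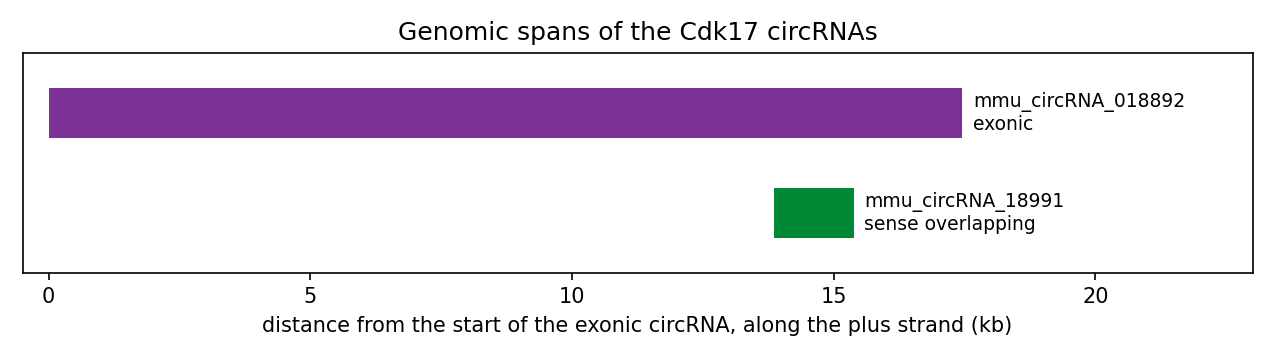
Genomic spans of the Cdk17 circRNAs along the plus strand, in kb from the start of the longer one. The shorter span (1.53 kb, green) lies near the 3′ end of the longer span (17.5 kb, purple).

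The deposited tables give a sequence of 60 bases for each probe. The sequences are shown because they are the only part of each circle that the array read, and because HuD is known to bind U-rich RNA. Capitals mark runs of at least 3 T, which are U in the RNA.
mmu_circRNA_18991: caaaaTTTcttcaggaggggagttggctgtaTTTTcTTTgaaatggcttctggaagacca
mmu_circRNA_018892: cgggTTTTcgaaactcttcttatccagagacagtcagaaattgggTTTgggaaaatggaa

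The sequence of mmu_circRNA_18991 was 33.3% T and held 3 such runs, and that of mmu_circRNA_018892 was 28.3% T and held 2. The longest run was 4 T in both, and both had a GC content of 41.7%. The median over the 737 named circRNAs was 23.3% T (range 5.0% to 45%) and 45% GC. A lower T content than that of the shorter circle was found in 93.4% of the named sequences, and a lower one than that of the longer circle in 73.9%. At least 1 run of 3 or more T was present in 52.6% of the named sequences, a run of 4 or more in 16.4%, and 3 or more runs in 4.75%. Neither Cdk17 sequence held ATTTA, the core of an AU-rich element, or TTTTT, as printed. These motifs occurred in 5.29% and 3.66% of the named sequences. The search covered the printed strand of these 60 bases only, and the rest of each circle was not searched.

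For each circRNA the tables name 5 microRNAs with a predicted site, by a prediction that was not tested here. The Cdk17 circles shared mmu-miR-216a-3p and mmu-miR-3970, which were named for 6 and 3 of the 737 circRNAs. Among 235 pairs of named circRNAs from the same gene, 64 (27.2%) shared at least 2 microRNAs and the median pair shared 0. The shorter circle further had mmu-miR-1a-1-5p, mmu-miR-297c-5p and mmu-miR-466n-3p, and the longer had mmu-miR-1903, mmu-miR-3100-5p and mmu-miR-669k-5p. Of the 8 microRNAs, 4 had a mature sequence in RefSeq (GRCm38.p6). They are shown to compare the predicted partners of the circles, with the seed (bases 2 to 8) in capitals.
mmu-miR-216a-3p: cACAGUGGucucugggauuaug
mmu-miR-1a-1-5p: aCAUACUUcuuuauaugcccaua
mmu-miR-1903: cCUUCUUCuucuuccugagaca
mmu-miR-3100-5p: uUGGGAACggggugucuuuggga

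No seed was shared among these 4, and neither 60-base sequence held a complement of any of the 4 seeds.

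Both circRNAs stood out from the background of the slide on all 3 HuD RIP arrays. The uncorrected median intensity of the mmu_circRNA_18991 spot was 252, 89 and 256 on HuD RIP replicates 1 to 3, over a local background of 15, 20 and 18. On WT RIP the same spot read 35, 21 and 26 over 18, 19.5 and 15, and on IgG RIP it read 23 on every array over 17, 15 and 16.5. Every HuD RIP reading was above every control reading. The scanner software marked the spot as well above background in all of HuD RIP, on 1 of 3 arrays in WT RIP (replicate 1) and on 0 of 3 in IgG RIP.

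The spot of mmu_circRNA_018892 read 190, 35 and 68 on HuD RIP over 13, 19 and 17. It read 30, 18 and 20.5 on WT RIP over 18, 18 and 14, and 23, 20 and 20.5 on IgG RIP over 16, 14 and 15. Its HuD RIP readings were spread more widely, with replicate 2 only slightly brighter than WT RIP replicate 1. The marks were as for the shorter circle, with 3 of 3 HuD RIP arrays, WT RIP replicate 1 and no IgG RIP array. The 77 negative control spots of each array had a median between 19 and 21 and a highest value between 21 and 26. The readings of both circles on the 5 control arrays without the mark were between 18 and 26. Of these 5, the shorter circle exceeded all negative controls of its own array on WT RIP replicate 3 (26 against at most 22). It also did so on IgG RIP replicates 1 to 3 (23 against at most 22, 22 and 21). The longer circle did so on IgG RIP replicate 1 only (23 against at most 22).

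**Figure D2:**
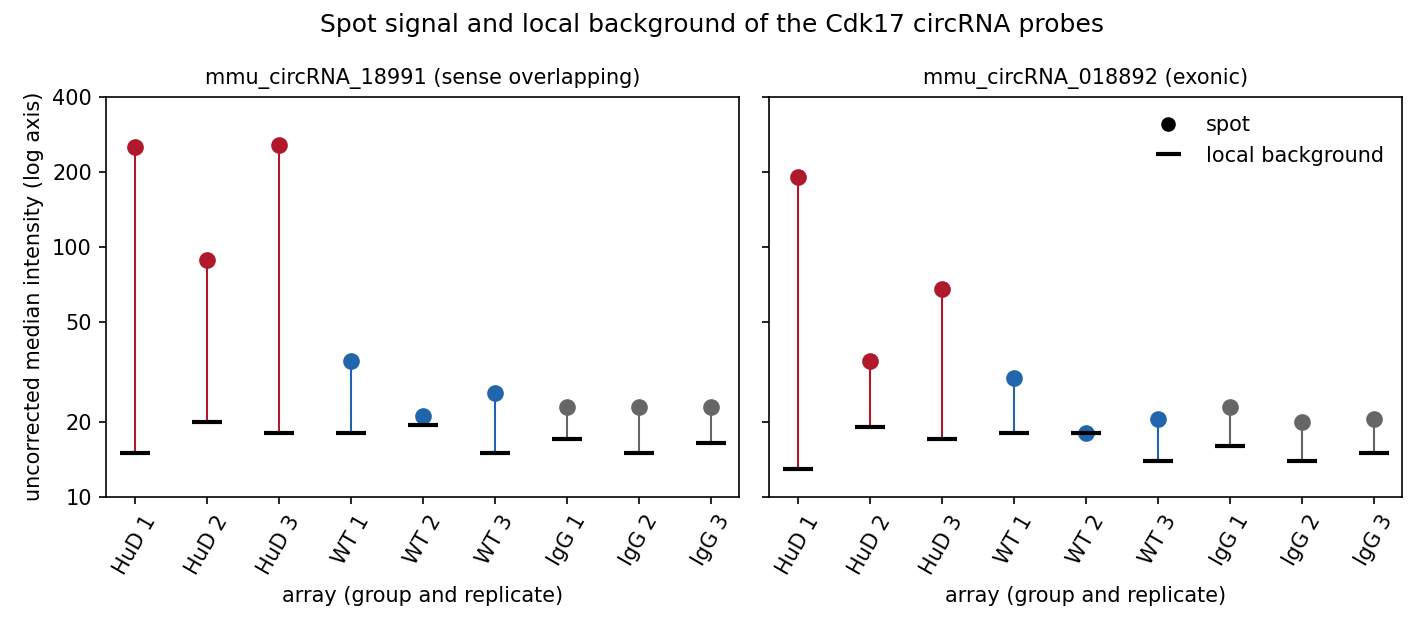
Uncorrected median intensity of each Cdk17 circRNA spot (points, log axis) and of its local background (bars) on the 9 arrays. The shorter circle reads 89 to 256 on HuD RIP and 21 to 35 on the controls, and the longer 35 to 190 and 18 to 30.

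After background subtraction by the scanner software, the processed signal of the shorter circle was 229, 67.0 and 229 on HuD RIP, 11.6, 1.02 and 3.24 on WT RIP, and 2.13, 2.22 and 1.78 on IgG RIP. That of the longer circle was 165, 15.5 and 46.0 on HuD RIP, 8.68, 1.02 and 1.02 on WT RIP, and 2.04, 1.13 and 1.22 on IgG RIP. The value 1.02 was the lowest on WT RIP replicates 2 and 3 and was shared there by 6041 probes (42.2%) and 4994 probes (34.9%). It is a floor that holds no order, and on no other array did more than 1 probe share the lowest value.

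Arrays differed in brightness along the same lines as the groups. The log2 signal at the 75th percentile was 5.46, 3.49 and 4.21 on HuD RIP, 3.51, 2.35 and 2.82 on WT RIP, and 2.42, 2.04 and 2.05 on IgG RIP. In the same order, 43.7% to 73.9%, 25.4% to 44.6% and 21.7% to 26.3% of probes were well above background. Signals were therefore scaled, each being its log2 value minus the 75th percentile of its array, so that a scaled value of 0 is the brightness of that percentile. On IgG RIP replicates 2 and 3 the lowest signal well above background was at 0.07 on this scale. The percentile used as reference was thus not itself well above background on those arrays. The part of brightness in the differences was not tested beyond this scaling and the alternatives given here.

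On this scale mmu_circRNA_18991 was 2.37, 2.57 and 3.63 on HuD RIP (mean 2.86 ± 0.674, SD, n = 3). It was 0.03, -2.33 and -1.12 on WT RIP (-1.14 ± 1.18, SD, n = 3) and -1.33, -0.89 and -1.22 on IgG RIP (-1.15 ± 0.228, SD, n = 3). HuD RIP was above all control arrays, and the control groups overlapped each other. By rank, the circle was brighter than 95.5% to 98.4% of all probes in HuD RIP and than 55.7% to 62.1% in IgG RIP. On WT RIP it was brighter than 75.4% on replicate 1 and 59.0% on replicate 3, and was at the floor on replicate 2.

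On the same scale mmu_circRNA_018892 was 1.90, 0.46 and 1.31 on HuD RIP (1.23 ± 0.724, SD, n = 3). It was -0.39, -2.33 and -2.80 on WT RIP (-1.84 ± 1.28, SD, n = 3) and -1.39, -1.86 and -1.76 on IgG RIP (-1.67 ± 0.246, SD, n = 3). Again HuD RIP did not overlap either control, although the gap between the lowest HuD RIP array and WT RIP replicate 1 was 0.85 for this circle and 2.34 for the shorter one. The gaps to the highest IgG RIP array were 1.85 and 3.27. The longer circle was brighter than 80.7% to 93.6% of probes on the HuD RIP arrays.

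**Figure D3:**
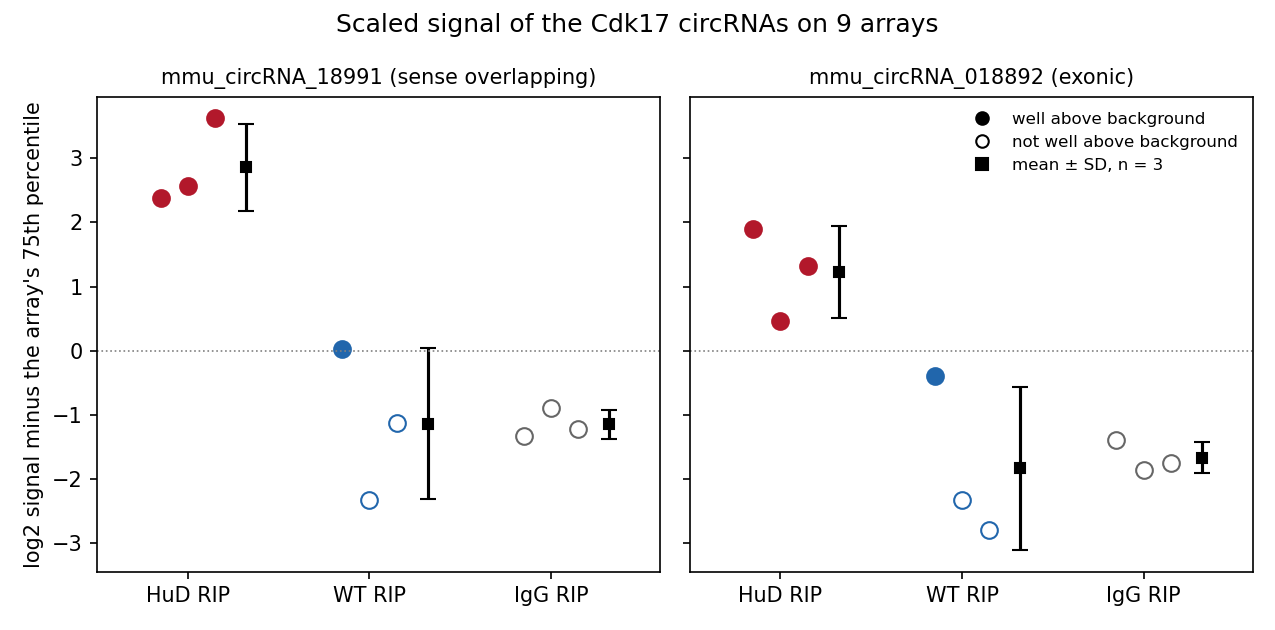
Scaled log2 signal of each Cdk17 circRNA (signal minus the 75th percentile of its array) by group. Points are arrays, filled where the spot was well above background, and squares with bars are the mean ± SD (n = 3); the HuD RIP arrays lie above all 6 control arrays for both circles, from 2.37 to 3.63 and from 0.46 to 1.90.

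Non-overlap of this kind was not rare on these arrays. Of the 6871 probes tested, those well above background on at least 3 arrays, 14.9% had all HuD RIP arrays above all WT RIP arrays, 20.9% had them above all IgG RIP arrays, and 12.5% had them above all 6 controls. Both Cdk17 circles were among all of these, and nothing is read from that count because the same contrasts selected them.

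The scaled log2 difference of HuD RIP from WT RIP was 4.0 (SE 0.56, limma, n = 3 and 3) for mmu_circRNA_18991, a ratio of 16.0, and 3.06 (SE 0.59) for mmu_circRNA_018892, a ratio of 8.36. Only 1 of the 3 WT RIP arrays measured either circle, so these ratios rest in part on signals at or near the floor. When signals not well above background were raised to the lowest signal that was, the differences were 3.18 and 1.69 (log2). With normexp background correction of the uncorrected signals, which adds an offset of 50 and compresses dim signals, they were 1.55 and 0.72. The order of the circles and the direction held, and the size did not.

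Against IgG RIP, where no array measured either circle, the ratio has only a lower bound. Under the 75th percentile scaling, HuD RIP was at least 7.5-fold higher for mmu_circRNA_18991 and at least 2.42-fold higher for mmu_circRNA_018892. Each bound sets the HuD RIP mean against the mean, over the IgG RIP arrays, of the higher of the spot's own signal and the lowest signal well above background. The fitted scaled log2 differences were 4.01 (SE 0.56) and 2.90 (SE 0.59). Under some other processing the log2 differences were smaller and fell below these bounds. They were 2.29 and 1.18 in the authors' normalized values and 1.55 and 0.66 with normexp, and that of the longer circle was 0.71 with array brightness as a covariate. Some settings gave larger differences, such as quantile normalization (4.35 and 3.15) and no scaling between arrays (6.22 and 5.11). Both control comparisons share the HuD RIP arrays and are not independent of each other.

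Among the 737 named circRNAs, the median scaled log2 difference from WT RIP was 2.16 and that from IgG RIP 2.17, whereas over all tested probes the medians were -0.36 and -0.29. Both Cdk17 circles had fitted differences above the medians of the named circRNAs. No rank is given, since most of their control signals were not measured, and all 737 were listed by the authors for a difference of this kind.

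The control groups were the one contrast that the selection did not use. Both circles entered the fit through the 3 HuD RIP arrays, however, and were measured on 1 of the 6 control arrays, so this contrast rests mostly on signals under the detection mark, some at the floor. WT RIP minus IgG RIP was 0.01 for mmu_circRNA_18991 (scaled log2, SE 0.56, adjusted p = 0.999, limma with Benjamini-Hochberg adjustment) and -0.17 for mmu_circRNA_018892 (SE 0.59, adjusted p = 0.999). Neither difference exceeded the spread between arrays, and with so few measured values the test says little about whether the controls differed. Of all 6871 probes, 1 (0.0146%) passed an adjusted p of 0.05 in this contrast and 393 had an unadjusted p below it. All WT RIP arrays lay in slide row 1 and all IgG RIP arrays in slide row 2, so group and row cannot be told apart here. With slide row as a block, WT RIP minus IgG RIP was 0.70 (SE 1.09) for mmu_circRNA_18991 and -1.22 (SE 1.12) for mmu_circRNA_018892. In the order of levels HuD RIP was above both controls for each circle, and no order is given between WT RIP and IgG RIP.

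The circles were next compared with each other on the same array, where any shift of a whole array cancels. Spots of different probes differ in how well they bind, so the level of this difference has no meaning of its own and only its change between arrays is described. The log2 signal of mmu_circRNA_18991 minus that of mmu_circRNA_018892 was 0.47, 2.11 and 2.31 on HuD RIP (mean 1.63 ± 1.01, SD, n = 3). It was 0.42, 0.00 and 1.67 on WT RIP (0.70 ± 0.870, SD, n = 3) and 0.06, 0.97 and 0.54 on IgG RIP (0.52 ± 0.454, SD, n = 3). Both spots were well above background only on the 3 HuD RIP arrays and on WT RIP replicate 1, and the 0.00 on WT RIP replicate 2 is a difference of equal floors.

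The HuD RIP mean exceeded the WT RIP mean by 0.93 and the IgG RIP mean by 1.11 (log2, SE 0.66 each), with overlap between the groups in both cases. The WT RIP mean was 0.17 above the IgG RIP mean, and no test is given for it, since 5 of these 6 arrays did not measure both circles. On the 4 arrays that measured both circles, the difference was 0.42 and 0.47 on WT RIP replicate 1 and HuD RIP replicate 1 and 2.11 and 2.31 on HuD RIP replicates 2 and 3. The first 2 of these arrays lay in row 1 of slide 1 and the others in row 2, with slides told apart by scan date only. HuD RIP replicate 1 was the brightest array of the 9. The part of slide row or brightness in this split was not tested. Compared with the mean of the other HuD RIP arrays, replicate 1 was 0.73 lower for the shorter circle on the scaled log2 scale and 1.01 higher for the longer one, against a median of -0.28 and an SD of 1.14 over the tested probes. For 14.4% of tested probes that deviation was larger than for the longer circle.

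**Figure D4:**
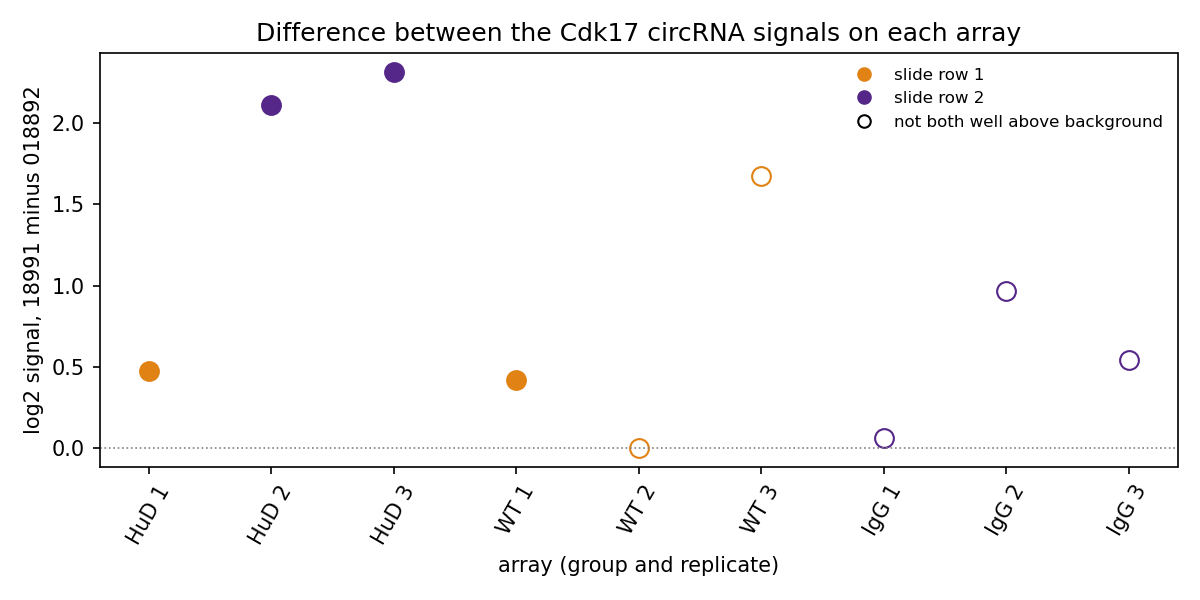
Log2 signal of the shorter minus that of the longer Cdk17 circRNA on each array. Points are coloured by slide row and filled where both spots were well above background. IgG RIP replicate 3 had a scan date of its own and was taken to lie on another slide. The filled points fall at 0.42 and 0.47 in row 1 and at 2.11 and 2.31 in row 2.

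Row 1 of slide 1 held HuD RIP replicate 1 with the 3 WT RIP arrays, and row 2 held HuD RIP replicates 2 and 3 with IgG RIP replicates 1 and 2, so each control was compared with part of HuD RIP within a row. Within row 1, HuD RIP minus WT RIP was 3.51 for the shorter circle and 3.74 for the longer one (scaled log2, 1 array against 3). Within row 2, HuD RIP minus IgG RIP was 4.21 and 2.51 (2 arrays against 2). HuD RIP was higher within each row for both circles, but the larger difference belonged to the longer circle in row 1 and to the shorter one in row 2. In terms of the difference between circles, HuD RIP minus WT RIP turned from 0.93 to -0.22 with the row as a block. The pattern of a larger HuD RIP difference for the shorter circle than for the longer one thus rested on HuD RIP replicates 2 and 3.

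Unequal fitted differences were also seen in other named genes. The gap between the scaled log2 differences of HuD RIP from a control was taken for 111 genes with exactly 2 named circRNAs. Against WT RIP it had a median of 0.61 (quartiles 0.24 and 1.19), beside 0.93 for Cdk17. Against IgG RIP the median was 0.57 (quartiles 0.29 and 1.08), beside 1.11 for Cdk17. For Cdk17 both gaps include control signals that were not measured, and no rank is given.

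The differences of HuD RIP from either control were above 0 for both circles in every processing setting that was run, and mmu_circRNA_18991 had the larger one in all settings except the slide row block against WT RIP. The values ranged from 1.55 to 5.49 (log2) for mmu_circRNA_18991 against WT RIP and from 0.72 to 4.56 for mmu_circRNA_018892. With the normalized log2 values of the authors' tables they were 2.20 and 1.23. In those values the shorter circle read 6.62, 6.45 and 7.51 on HuD RIP, 5.04, 4.07 and 4.85 on WT RIP, and 4.49, 4.67 and 4.55 on IgG RIP. The longer read 6.22, 5.04 and 5.67 on HuD RIP, 4.76, 4.03 and 4.42 on WT RIP, and 4.61, 4.37 and 4.39 on IgG RIP. HuD RIP lay above both controls for each circle there too.

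**Figure D5:**
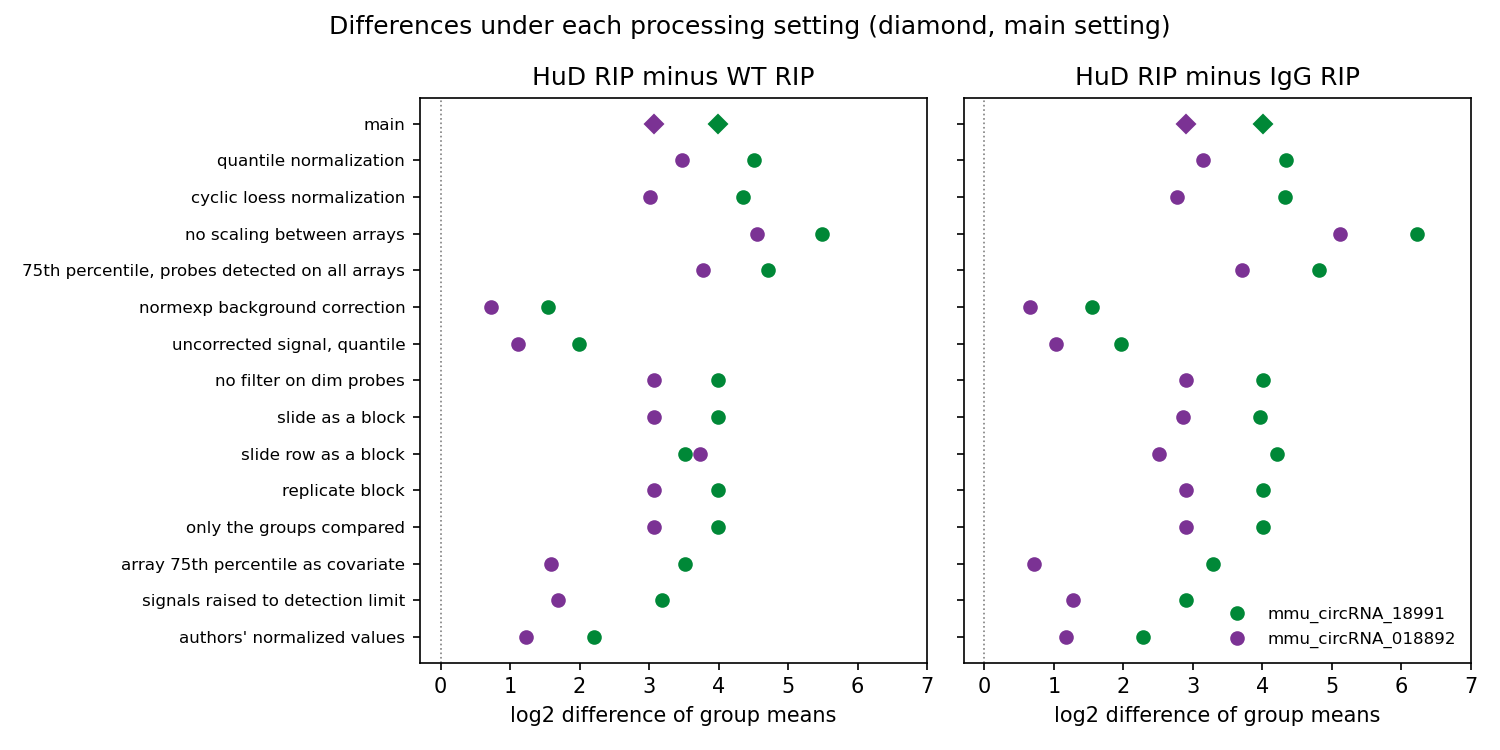
Log2 difference of HuD RIP from WT RIP (left) and from IgG RIP (right) for each Cdk17 circRNA under every processing setting other than leaving out an array. All points lie above 0, from 0.72 to 5.49 against WT RIP and from 0.66 to 6.22 against IgG RIP.

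Circles of other cyclin-dependent kinase genes and of a list of cyclin genes were counted next. The named circRNAs held 4 from 3 other genes reported here, namely Cdk14, Ccnt2 (cyclin T2) and Ccny (2 circles). All 4 had every HuD RIP array above every IgG RIP array, beside 20.9% of all tested probes, and 1 of 4, that of Ccnt2, had them above every WT RIP array, beside 14.9%. Being listed for this difference, they show no more by these counts than the Cdk17 circles do. Their median scaled log2 difference from WT RIP was 2.20 (1.63 to 2.78), and that from IgG RIP 2.49 (2.19 to 3.42). WT RIP minus IgG RIP had a median of 0.43 (-0.08 to 1.0), with 0 of 4 at an adjusted p under 0.05 (limma), where 0.0146% of all probes passed. With only 1 of 6871 probes passing, 0 of 4 does not tell whether the controls differed for these circles. The Cdk14 and Ccnt2 circles were each well above background on 3 HuD RIP, 1 WT RIP and 0 IgG RIP arrays.

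Cdk14 encodes the closely related kinase that cyclin Y activates. Its circle, mmu_circRNA_014228, had a scaled mean of 0.11 ± 0.693 on HuD RIP, -1.87 ± 1.22 on WT RIP and -2.18 ± 0.210 on IgG RIP (SD, n = 3 each), and was well above background on as many arrays as the Cdk17 circles (3, 1 and 0 by group). Ccny encodes cyclin Y itself. Its exonic circle, mmu_circRNA_31240, was well above background on all 9 arrays, with 3.01 ± 0.958, 1.38 ± 1.11 and 0.82 ± 0.476. Its intronic circle, mmu_circRNA_31249, had 2.52 ± 1.05, 0.10 ± 1.68 and -0.90 ± 0.723 and was measured on 3, 2 and 0 arrays. For the Cdk14 circle and both Ccny circles HuD RIP overlapped WT RIP, and for the Ccnt2 circle and both Cdk17 circles it did not. The Cdk14 overlap was small, with a lowest HuD RIP value of -0.66 and a highest WT RIP value of -0.49. Nothing is read from this, since all of these circles were listed by the authors as higher in HuD RIP. No circle of Cdk15, Cdk16, Cdk18 or Ccnyl1 was among those named.

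Across the 9 arrays, the pattern of mmu_circRNA_18991 was most like those of the named circRNAs of Hnrnpd (mmu_circRNA_39020, Pearson r = 0.993), Tcf4 (mmu_circRNA_31927, 0.990) and Anks1b (mmu_circRNA_017958, 0.989). That of mmu_circRNA_018892 was most like those of Dclk1 (mmu_circRNA_35365, 0.995), Rufy3 (mmu_circRNA_010480, 0.991) and Dcun1d4 (mmu_circRNA_38782, 0.988). The Cdk17 circles correlated with each other at 0.921, against a median of 0.870 and 0.878 with all named circRNAs. These values share the arrays, the groups and the selection for higher signal in HuD RIP, and are a description only. Each Cdk17 circle was well above background on 3 HuD RIP, 1 WT RIP and 0 IgG RIP arrays. The correlations therefore rest in part on signals that were not measured. The companions from other genes were picked as the highest of many correlations, whereas the value between the Cdk17 circles was fixed beforehand. Nothing is therefore read from the companions lying above that value.

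The labelled tissue could not be checked from the named circRNAs, and markers among them are only counted. Of 12 markers of striatal projection neurons, 3 had named circles (Arpp21, Bcl11b and Foxp1, 7 circRNAs, well above background on 5 to 9 arrays). Of the other cell types, the astrocyte marker Slc1a2 had 1 circle, measured on 9 arrays, while 0 of 4 oligodendrocyte and 0 of 3 microglial markers were named. Since only circles higher in HuD RIP are named, this count does not test which cells were present or absent.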

How the data were processed

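The deposited scanner files hold intensity values from Feature Extraction 11.0.1.1 on 1-colour Arraystar Mouse circRNA arrays; per the file headers the processed signal is background-subtracted, not scaled between arrays. The authors' deposited tables hold normalized log2 values for listed circRNAs (used as an alternative; the normalization method is not given in the sources used here), with p-values, false discovery rates and fold changes of the authors' own comparisons, which were not used, nor were 12 columns of per-sample raw values and 8 of group means. Labels of the submitters name limma among the tools.

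The log2 processed signal was reduced by the 75th percentile of its array. Probes well above background on at least 3 arrays (6871) were fitted with limma 3.58.1 in R 4.3.3, with 1 mean per group over 9 arrays (6 residual and 6.42 prior degrees of freedom), and adjusted by Benjamini-Hochberg at 0.05. The fit was tested on simulated data with independent normal errors and large shifts in HuD RIP. That simulation held no floor and no effect of brightness or slide row, so it does not bear on those limits. Precision is limited by 3 arrays per group. Named genes were all Cdk17 circles, the kinase and cyclin list (counted except for an item of the planned list that is not reported here, with values for Cdk14, Cdk15, Cdk16, Cdk18, Ccny and Ccnyl1), and the 3 most correlated named circRNAs. Alternatives were other scalings, background corrections, filters, blocks and left-out arrays. The members, lists and alternatives were chosen with earlier results of these data known. Deviations of same-numbered arrays from their group means correlated at 0.65, 0.56 and -0.10 between HuD RIP and WT RIP and at 0.10 or less between either and IgG RIP. Since not every pair was over 0.1, replicate numbers were not used as pairs. Placing the circles on the CDK17 protein was planned and not run.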

Additional observations from a re-analysis of the deposited data

How the results depend on the processing

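Values are log2 differences, given for mmu_circRNA_18991 and then mmu_circRNA_018892; the cause of each shift was not tested. HuD RIP was above both controls in every setting run. The size depended on how dim signals were treated. Against WT RIP it was 5.49 and 4.56 without scaling, 1.55 and 0.72 with normexp, 1.99 and 1.12 with uncorrected quantile-normalized signals, 3.18 and 1.69 with signals raised to the detection mark (chosen after seeing the data), and 2.20 and 1.23 in the authors' normalized values. Against IgG RIP the same settings gave 6.22 and 5.11, 1.55 and 0.66, 1.97 and 1.03, 2.91 and 1.27, and 2.29 and 1.18. Scaling on probes that were detected on every array gave 4.82 for the shorter circle against IgG RIP. With array brightness as a covariate the longer circle had 1.59 against WT RIP and 0.71 against IgG RIP, and the difference between circles was 1.93 and 2.58. With slide row as a block that difference was -0.22 for HuD RIP minus WT RIP and 1.92 for WT RIP minus IgG RIP.

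For WT RIP minus IgG RIP no sign was stable and no setting gave an adjusted p under 0.05 (limma). The shorter circle turned to -0.16 (quantile), -0.025 (cyclic loess), -0.0020 (normexp), -0.018 (uncorrected), -0.029 (slide block), -0.22 (brightness covariate) and -0.28 (raised signals), and the longer to 0.55 without scaling. Leaving out each array in turn gave -0.58 (without WT RIP replicate 1) to 0.60 for the shorter circle, -0.89 (without WT RIP replicate 1) to 0.31 for the longer, and -0.31 to 0.52 for the difference between circles. Over HuD RIP minus WT RIP the left-out arrays gave 3.40 to 4.59, 2.58 to 3.79 and, for the difference between circles, 0.59 (without WT RIP replicate 2) to 1.51 (without HuD RIP replicate 1). Over HuD RIP minus IgG RIP they gave 3.62 to 4.25, 2.56 to 3.28 and 0.77 to 1.69 (without HuD RIP replicate 1). With the replicate block, the values were unchanged in this balanced design, 1 probe was called for WT RIP against IgG RIP, and the lower adjusted p of the Cdk17 circles was 0.994. In deviations from their group means, 6 of the 9 arrays correlated best with an array of their own number. The methods' t-test for WT RIP against IgG RIP had 510 probes at an unadjusted p under 0.05 and 0 after Benjamini-Hochberg, where limma had 393 and 1, and it called neither Cdk17 circle.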
